A study of Mus musculus with 6 samples.

Results

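The cytosolic ribosomal protein genes are the genes whose products, with ribosomal RNA, make up the ribosomes of the cytoplasm. They were taken here as every gene whose platform symbol has the form Rpl or Rps with a number, or is Rplp0, Rplp1, Rplp2 or Rpsa, on probe sets that name exactly 1 gene. Pseudogenes and the S6 kinases were left out, and each gene was represented by its brightest probe set on average. This gave 46 of 18193 genes, 24 of the large subunit and 22 of the small subunit. A further 28 symbols of the same form, among them Rpl3, Rpl5 and Rplp1, appear only on probe sets that name several genes and were not used here.

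The cells were memory-phenotype CD4+ T cells, taken from spinal cord (3 arrays) or from draining lymph nodes, the inguinal ones (3 arrays). The donors were female C57BL/6 mice of 8 to 10 weeks. All mice had acute clinical experimental autoimmune encephalomyelitis (EAE), an inflammatory demyelinating disease induced with the myelin peptide MOG35-55, and no array came from mice without EAE. The question behind the comparison is how memory T cells inside the inflamed target tissue differ from those in the node. The labels do not say how many mice stand behind an array, so p-values reflect only how far these samples spread, which can be technical. RNA was amplified in 2 cycles from 1 ng of total RNA, and the precision is limited by the number of arrays, which carry no read depth.

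A ribosome holds 1 copy of nearly every ribosomal protein, and the genes are known to be expressed in proportion. In T cells, antigen receptor signals raise ribosome production through Myc, which drives transcription of ribosome assembly genes, and through mTOR, which releases the translation of ribosomal protein mRNAs. Those mRNAs begin with a run of pyrimidines, the terminal oligopyrimidine (TOP) tract, which the repressor Larp1 binds when mTOR is off. Control at that step changes translation and need not change the mRNA level that an array measures.

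The 30 bases around the annotated transcription start of the 6 genes with the lowest log2 changes are shown to let the reach of such a tract be seen at each start. They run from 15 bases before the start to 15 after it, 5′ to 3′ on the gene's strand, from RefSeq on build GRCm38.p6. Capitals mark each C followed by at least 5 bases that are all C or T.
Rpl12 (chr2:32961697-32961726, plus strand): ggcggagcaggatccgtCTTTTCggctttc
Rps15 (chr10:80292416-80292445, plus strand): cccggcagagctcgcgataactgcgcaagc
Rps26 (chr10:128626492-128626521, minus strand): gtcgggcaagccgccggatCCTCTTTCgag
Rpl14 (chr9:120571502-120571531, plus strand): gggcgggCCCTCTCTCTTCTCgctgagcgc
Rpl35 (chr2:39005117-39005146, minus strand): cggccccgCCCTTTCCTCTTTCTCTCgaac
Rps10 (chr17:27635230-27635259, minus strand): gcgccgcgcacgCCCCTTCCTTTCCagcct
In this window 5 of the 6 hold such a run. A start was matched by symbol for 40 of the 46 genes, with 48 starts in all. The run was present at 24 of the 48 starts (50%), against 22.5% of all 32851 starts in the table, read on the gene's strand only. The motif CCGGAAG, the core bound by Ets family factors, was present on either strand in the 300 bases from 250 before to 50 after the start at 20 of the 48 (41.7%), against 8.86% of all starts. Its reverse complement, CTTCCGG, shares CTTCC with pyrimidine runs. The median log2 change was nearly the same with and without these letters. In numbers, the median, spinal cord minus lymph node, was -0.17 for the 24 genes with the run and -0.18 for the 16 without, and -0.17 for the 20 genes with CCGGAAG and -0.18 for the rest. These matches describe letters and show no binding. They rest on the annotated starts, so the split by the run is not a split of mRNAs with and without a TOP tract.

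None of the 46 genes was called different between spinal cord and lymph node at an adjusted p below 0.05 (limma, Benjamini-Hochberg over all genes; lowest adjusted p 0.29, Rpl12), against 2.54% of all genes (1.41% lower and 1.13% higher). At an unadjusted p below 0.05 there were 3, all lower in spinal cord, namely Rpl12, Rps10 and Rps20, against 14.3% of all genes in either direction and 8.89% in the lower direction. The log2 changes lay between -0.83 and 0.13, with a median of -0.17, which is a spinal cord over lymph node ratio of 0.888. Of the 46, 39 lay below 0, against 49.3% of all genes. The median over all genes was 0.00, but dim probe sets sit near 0. Over the 10916 genes at or above the 40th percentile of mean signal, an intensity of 74, the median was -0.12 and 62% lay below 0. With quantile normalization the median was -0.07 for the ribosomal protein genes, with 33 of 46 below 0, and -0.03 over all genes above the same percentile. In these bulk samples fewer cells of a type and less RNA per cell cannot be told apart. The array medians over all probe sets were 68 to 71, so a change of all mRNA together would not be seen.

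**Figure D1:**
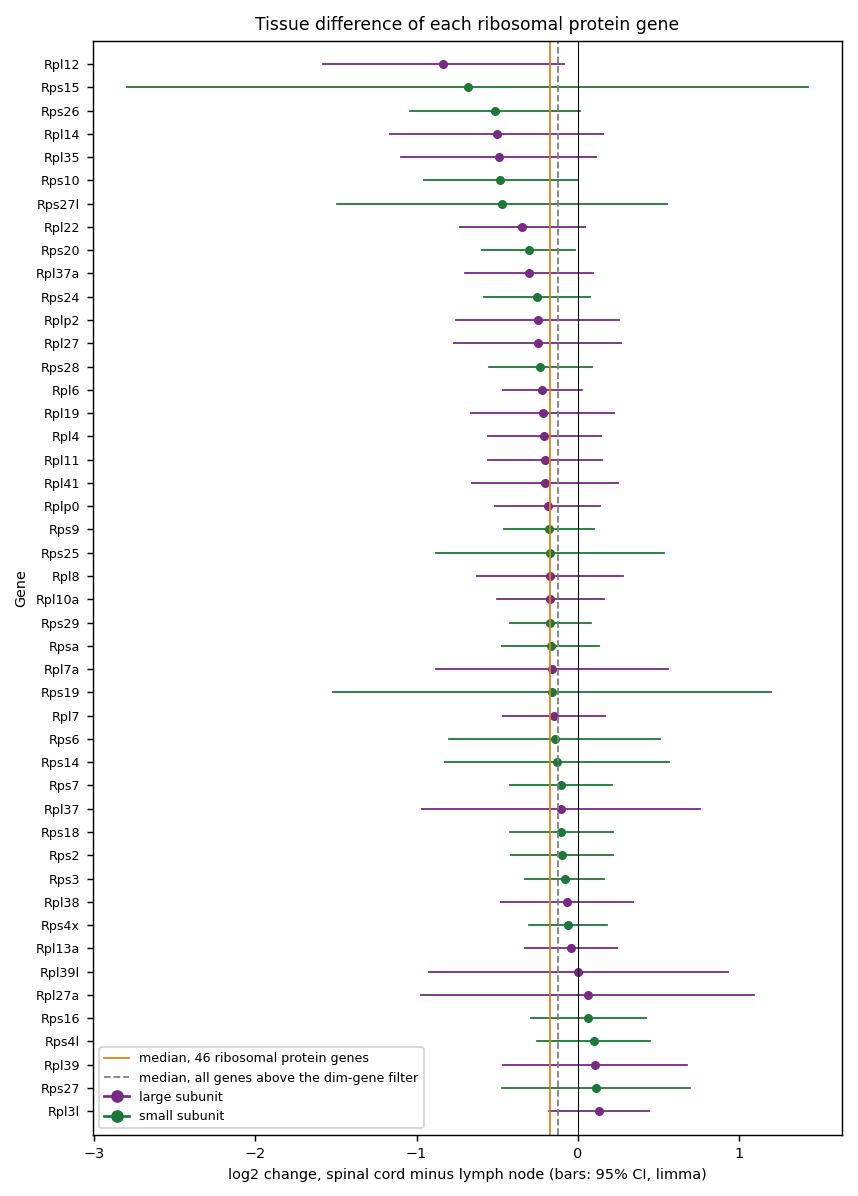
Log2 change of each ribosomal protein gene, spinal cord minus lymph node (points), with unadjusted 95% confidence intervals from limma (bars, n = 3 arrays per tissue). The solid orange line is the median of the 46 genes (-0.17) and the dashed line the median of all genes above the dim-gene filter (-0.12); most points lie between -0.5 and 0, and 3 intervals lie wholly below 0.

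The standard errors of the 46 changes ran from 0.10 to 0.87, with a median of 0.17. The 95% intervals of 21 genes lay wholly within a 1.5-fold difference in either direction. They hold for the chosen probe sets only. Rps18, among these 21, had a change of -0.10 in its chosen set. Its other sets had -0.34 and -0.37, and its dimmest, at most 127 on every array, had 0.09, -0.09 and -0.03. Intervals of 7 genes reached a 2-fold lower level in spinal cord, and those of 3 (Rps15, Rps19 and Rpl27a) a 2-fold higher one. In these genes 3 arrays per tissue leave room for a difference of that size. Both subunits had similar medians, -0.19 for the large and -0.16 for the small subunit, with 20 of 24 and 19 of 22 genes below 0. The other 7 genes, with changes above 0, were Rpl3l, Rps27, Rpl39, Rps4l, Rps16, Rpl27a and Rpl39l. All but Rpl27a read at most 233 on every array.

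Transcripts of CD4 T cells were present in both tissues, while most myeloid genes had higher values in spinal cord. The summed intensity of 12 measured CD4 T cell genes was 66380 to 79115 in spinal cord, against 68318 to 87143 in lymph node, with 5 of 12 above 0 and 0 called. Cd3e read 2153, 1358 and 1679 in spinal cord, against 2124, 1248 and 1405 in lymph node, and the B cell gene Ms4a1 read at most 43 on every array. Cd79b, a B cell receptor gene, read 43, 29 and 39 in spinal cord, against 117, 79 and 57 in lymph node (log2 change -1.15 ± 0.29, adjusted p = 0.134 by limma, 0.0267 with the block described below). The macrophage and microglia list had 17 of 18 measured genes with changes above 0 (median log2 change 1.42; 0 called, 8 with the block), and none was at 0. Its summed intensity was 12127 to 21135 in spinal cord, against 14489 to 15476 in lymph node, mostly from Ctss. All 10 measured neutrophil genes had changes above 0 too (median 1.06; 1 called, Mmp9), with sums of 952 to 2520 in spinal cord, against 514 to 695 in lymph node. Medians were 0.04 for B cell, 0.07 for CD8 T cell, 0.13 for neural and 0.43 for erythroid genes, with 0 called; with the block 1 B cell gene, Cd79b, and 1 neural gene, Cnp, fell. Lyz2, the macrophage lysozyme gene, read 245, 1771 and 563 in spinal cord, against 78, 81 and 78 in lymph node. Spinal cord array 2, which had the most Lyz2, was also the array with the lowest ribosomal protein signal. Spinal cord array 3 went the other way: it had more Lyz2 than array 1 (563 against 245) and a higher mean log2 ribosomal protein signal (12.39 against 12.18).

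Spinal cord array 2 had the lowest of all 6 values for 26 of the 46 genes, and the lowest of the 3 spinal cord values for 29. The mean log2 signal of the 46 genes was 12.18, 12.03 and 12.39 in spinal cord arrays 1, 2 and 3, against 12.27, 12.36 and 12.55 in lymph node arrays 1, 2 and 3. Within each number the spinal cord array was lower on average, with median differences of -0.05, -0.30 and -0.12 and 32, 41 and 36 of the 46 genes lower. Over the 10916 genes above the dim filter the medians were -0.05, -0.12 and -0.16, with 6102, 6470 and 7012 genes lower. The ribosomal protein median was thus well below that of these genes in number 2 only, and above it in number 3. Within all 3 numbers 26 of the 46 were lower, against 24.7% of all genes and 36.4% of genes above the dim filter. Without spinal cord array 2 the median log2 change over the genes was -0.09, with 33 of 46 below 0. The part of myeloid RNA in these values was not tested.

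In the large subunit, Rpl12, a protein at the base of the stalk to which elongation factors bind, had the lowest change. It read 327, 577 and 418 in spinal cord, against 772, 1054 and 549 in lymph node. The ranges overlap, since spinal cord array 2 was above lymph node array 3. Its log2 change was -0.83 ± 0.31 SE (95% interval -1.58 to -0.09). The other measured stalk genes had smaller changes. Rplp0, the stalk's anchor, read 22987, 18274 and 21013 in spinal cord, against 25473, 21822 and 23346 in lymph node (log2 change -0.19 ± 0.13, adjusted p = 0.636 by limma). Rplp2, an acidic stalk protein, had a change of -0.25 ± 0.21 (adjusted p = 0.691).

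Rpl22, an RNA-binding protein that mouse alpha-beta T cells need for their development, separated the tissues. It read 15760, 16584 and 16368 in spinal cord, against 16909, 24541 and 21065 in lymph node, and every spinal cord value was lower. The log2 change was -0.34 ± 0.16 (adjusted p = 0.414), and its other 2 probe sets had changes of -0.46 and -0.61. Rpl6 also separated them, at 18484, 17405 and 17690 in spinal cord, against 20065, 21394 and 20919 in lymph node (-0.22 ± 0.10). Rpl35, which lies near the exit of the nascent peptide tunnel, read 12394, 10629 and 18299 in spinal cord, against 16553, 17095 and 23623 in lymph node. Its groups overlap, its change was -0.49 ± 0.25, and 4 of its 5 other probe sets had changes between -0.64 and -0.45, while the dimmest, at most 43 on every array, had 0.21.

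Rpl11, which with 5S RNA can bind Mdm2 and so stabilise p53, had a log2 change of -0.20 ± 0.15. Rpl4, a protein of the peptide tunnel wall, had -0.21 ± 0.14, and Rpl38, needed for translation of Hox mRNAs in the mouse embryo, had -0.07 ± 0.17. Rpl13a, which in human myeloid cells can also leave the ribosome to repress inflammatory mRNAs, read 25063, 24036 and 22313 in spinal cord, against 24682, 26365 and 22475 in lymph node. Its change was -0.04 ± 0.12, with an interval of -0.33 to 0.24. The other probe sets of Rpl13a had changes of -0.26, -0.25 and -0.09, and the first of these separated the tissues. None of these 4 genes was called. Rpl14 had a change of -0.50 ± 0.27, with 388, 280 and 461 in spinal cord, against 383, 660 and 564 in lymph node.

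In the small subunit, Rps10 and Rps20, both ubiquitinated when ribosomes collide, separated the tissues. Rps10 read 9887, 6378 and 8703 in spinal cord, against 12026, 10050 and 12330 in lymph node (log2 change -0.48 ± 0.19, adjusted p = 0.342). All 5 of its other probe sets also had changes below 0, from -0.48 to -0.19. Rps20 read 21297, 18399 and 19501 in spinal cord, against 23228, 26508 and 23379 in lymph node (-0.30 ± 0.12, adjusted p = 0.325). Rps29, at -0.17 ± 0.10, and Rpsa, known also as the laminin receptor, at -0.17 ± 0.12, had every spinal cord value below every lymph node value too. In all, 6 of the 46 genes separated the tissues in this way, 13.0% of them, and 0 in the other direction. Over all genes 9.68% did so in the lower direction, and 13.9% of genes above the dim filter. In the higher direction 1602 of all 18193 genes did so, and 943 of the 10916 above the dim filter. The share in the lower direction is near the background and is not a result about the ribosomal protein genes.

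Rps26, which contacts mRNA upstream of the start codon, read 8994, 6416 and 10162 in spinal cord, against 11981, 10122 and 13991 in lymph node. Only spinal cord array 3 reached the lymph node range, and the log2 change was -0.51 ± 0.22 (adjusted p = 0.367). Rps6, the target of S6 kinase, read 1786, 1652 and 2839 in spinal cord, against 1829, 2128 and 2889 in lymph node (-0.14 ± 0.27). Rps4x, the X-linked form, read 26176, 25213 and 25049 in spinal cord, against 26379, 27456 and 25946 in lymph node, a change of -0.06 ± 0.10 with an interval of -0.30 to 0.18. Rps3, at the mRNA entry channel, had -0.08 ± 0.10. Rps2, Rps18, Rps24 and Rps28 had changes of -0.10, -0.10, -0.25 and -0.23.

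**Figure D2:**
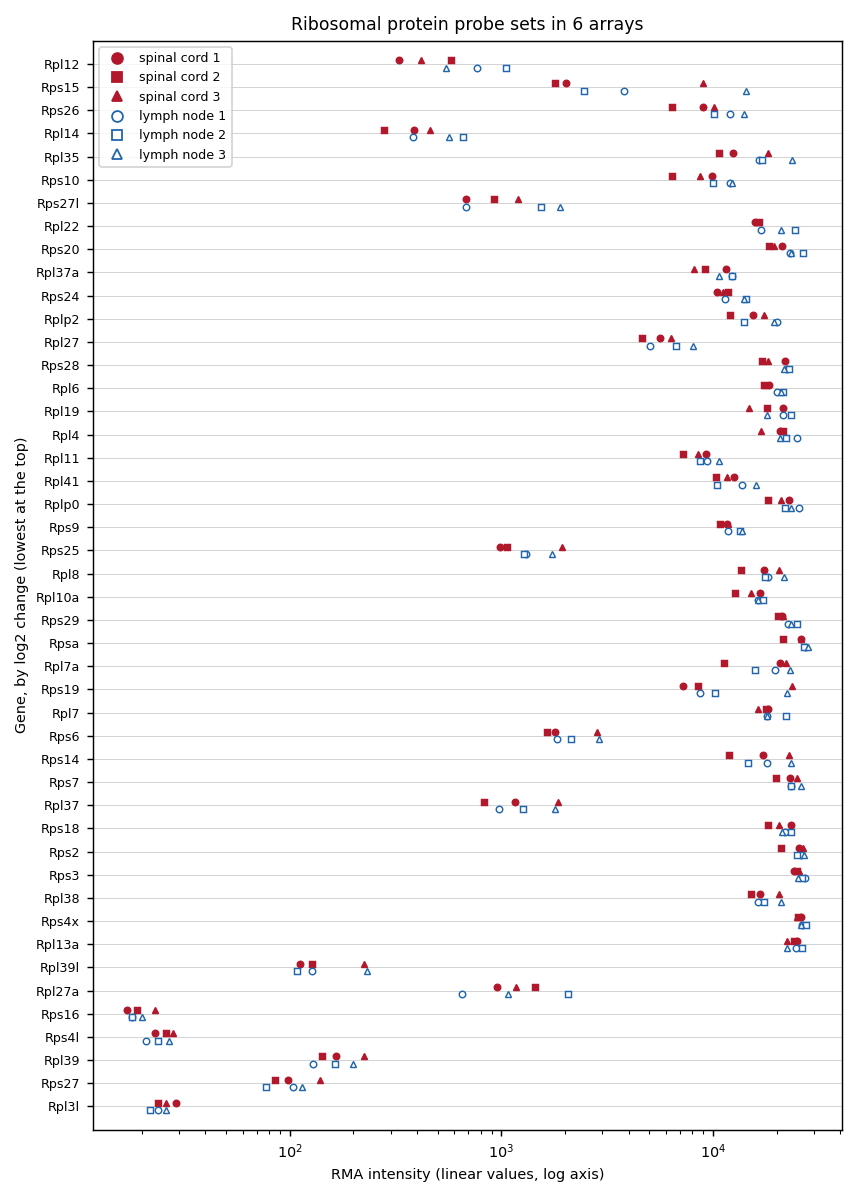
RMA intensity (log axis) of the chosen probe set of each ribosomal protein gene on each array, spinal cord filled and lymph node open, with the marker shape giving the array number. Tissue values overlap in 40 of the 46 genes; Rps15 and Rps19 split by array number, with number 3 to the right in both tissues. Brightness depends on the probes and does not rank the genes.

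Of the paralogues that replace a core protein in some tissues, Rpl3l and Rps4l were near the low end of the arrays. Rpl3l, the striated muscle form of Rpl3, read 29, 24 and 26 in spinal cord, against 24, 22 and 26 in lymph node. Rps4l read 21 to 28 on the 6 arrays. Rpl39l, a form known from the testis, read 112, 128 and 225 in spinal cord, against 127, 108 and 233 in lymph node (log2 change 0.00 ± 0.38). Rps27l, a paralogue of Rps27 that p53 induces, read 682, 921 and 1197 in spinal cord, against 683, 1541 and 1895 in lymph node. Its groups overlap, with a change of -0.47 ± 0.42 (adjusted p = 0.716). The single-gene probe sets of the core genes Rps27, Rpl39 and Rps16 read 77 to 139, 129 to 225 and 17 to 23. All 3 genes are also named by probe sets of several genes, so these low readings say little about the level of their mRNAs.

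The arrays of 1 number deviated together from their tissue means. The correlation across the 46 genes of the deviations from the tissue means was 0.637, 0.754 and 0.923 between spinal cord and lymph node arrays of number 1, 2 and 3, against 0.576, 0.509 and 0.777 across all genes. Genes are not independent, and centring builds part of this in. With the number as a block, 3 of the 46 genes fell in spinal cord and 0 rose: Rps15 (adjusted p = 0.0318), Rpl12 (adjusted p = 0.0425) and Rps26 (adjusted p = 0.0464, limma). That is 6.52% of the genes, while 11.1% of all genes were called in that fit, 7.45% lower and 3.67% higher. The share is near the background and is not a result about the ribosomal protein genes. The chosen set of Rps15, a protein of the small subunit head, was lower in spinal cord within each number. The differences were 0.91, 0.45 and 0.69 on the log2 scale, although the values overlapped widely between tissues. Its other set read 992, 962 and 6586 in spinal cord, against 1013, 926 and 11350 in lymph node. That set was not lower in spinal cord within number 2.

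In a test of the number itself, with tissue in the model, 5 of the 46 genes were called: Rps15 (adjusted p = 0.0114), Rps19 (adjusted p = 0.0129), Rpl39l (adjusted p = 0.0251), Rps14 (adjusted p = 0.0405) and Rps27l (adjusted p = 0.0441, limma's moderated F test). This is 10.9%, against 14.4% of all genes, and 0 were called when both arrays of any 1 number were left out. Rps15 read 2019, 1798 and 8932 in spinal cord, against 3804, 2455 and 14381 in lymph node. Rps19, a protein mutated in human Diamond-Blackfan anaemia, read 7216, 8497 and 23653 in spinal cord, against 8729, 10270 and 22417 in lymph node. Both were highest in array 3 of each tissue, at 4.70 and 2.67 times the geometric mean of the other 4 arrays. Rps14 read 17244, 11931 and 22925 in spinal cord, against 18062, 14651 and 23275 in lymph node, again highest in array 3.

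The number 3 arrays both lay above the other 4 for 17 of the 46 genes (37%), against 8.6% of all genes and 9.78% of those above the dim filter, and both below them for 2, against 13.3%. This count was chosen after the values were seen. The number 1 arrays lay above the rest for 0 genes, against 14.3% of all genes, and below for 3 (6.52%), against 5.88%. The number 2 arrays lay above for 1 (2.17%), against 4.61%, and below for 6 (13%), against 7.84%. The mitochondrial ribosomal protein genes had a like share, with 26 of 76 (34.2%) above in the number 3 arrays. The labels do not say what a number shares.

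Probe sets of 1 gene did not always follow the number alike. The chosen set of Rpl37a read 11569, 9142 and 8154 in spinal cord, against 12274, 12313 and 10651 in lymph node, lowest in array 3 of each tissue. The next set of the same gene read 993, 1099 and 5690 in spinal cord, against 1075, 1102 and 7917 in lymph node, highest in array 3. The dimmest set of Rpl27 read 2869, 2033 and 7890 in spinal cord, against 3254, 2287 and 7987 in lymph node. Its brightest set read 5610, 4629 and 6317 in spinal cord, against 5062, 6705 and 8087 in lymph node. Both Rpl27 sets were highest in array 3 of each tissue, at 3.09 times the other arrays for the dimmest and 1.31 times for the brightest. The brightest set of Rps9, which lies near the mRNA entry, read 11715, 10805 and 11756 in spinal cord, against 11728, 13428 and 13652 in lymph node. Another of its sets read 3407, 3388 and 10408 in spinal cord, against 6016, 4130 and 16673 in lymph node. Rps25, which many viral internal ribosome entry sites need, has its chosen set at 987, 1063 and 1940 in spinal cord, against 1307, 1278 and 1741 in lymph node, highest in array 3 of each tissue. Among 19 genes with several probe sets above the dim filter, the ratio of number 3 to the other arrays differed by at least 2 times between sets in 6. The 5′ control set of Gapdh moved the same way, at 1062, 603 and 3792 in spinal cord, against 1243, 403 and 4053 in lymph node, or 5.32%, 4.05% and 24.2% of its 3′ set in spinal cord, against 7.09%, 3.07% and 25.1% in lymph node. The actin 5′ set read 8373, 6100 and 11436 in spinal cord, against 15008, 2756 and 16288 in lymph node. It was highest in array 3 of each tissue, but lymph node array 1 was above spinal cord array 3. The part of this 5′ signal in the ribosomal protein values was not tested.

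**Figure D3:**
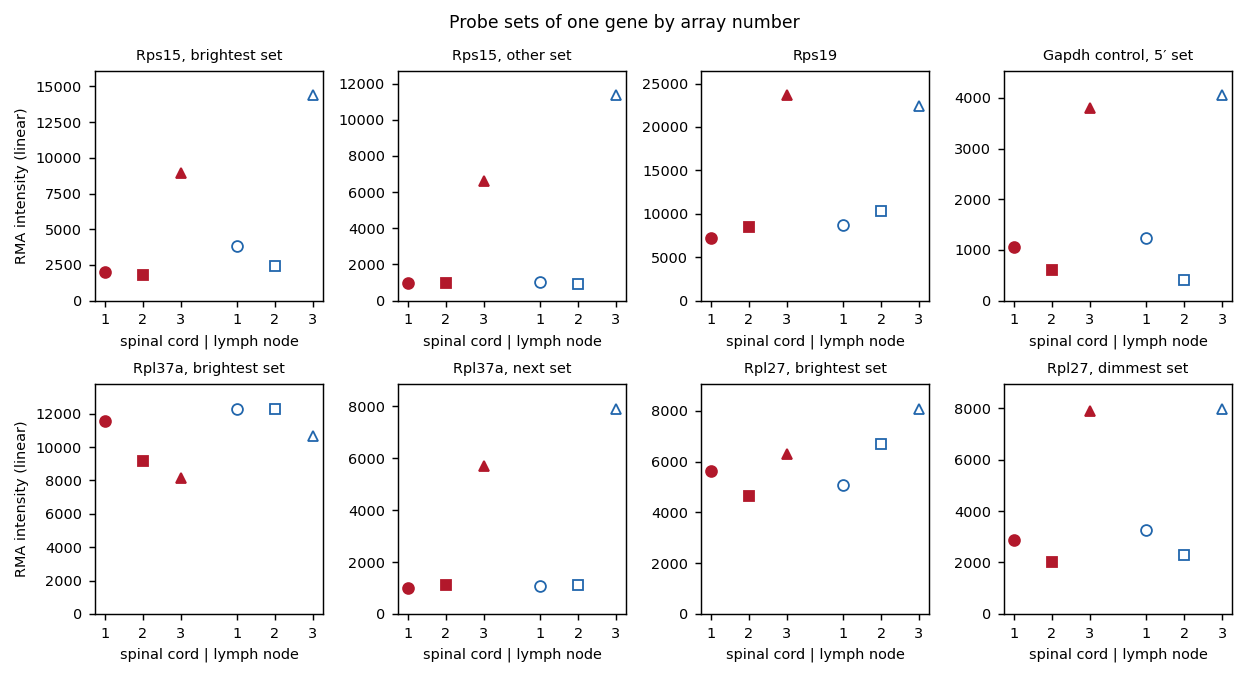
RMA intensity (linear axis from 0) of 8 probe sets by array, spinal cord arrays 1 to 3 on the left and lymph node arrays 1 to 3 on the right. Both sets of Rps15, Rps19, the second set of Rpl37a, the dimmest set of Rpl27 and the 5′ control set of Gapdh were highest in array 3 of each tissue, and the brightest set of Rpl37a was lowest there.

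The medians of the lists of genes that work beside the ribosomal proteins were also below 0, and those of ribosome assembly and mitochondrial ribosome genes were lower; these differences between lists were not tested. Of 61 measured ribosome biogenesis genes, 58 lay below 0 with a median of -0.33, and 1 was called, close to the 1.41% of all genes called lower. Heatr1, which acts in transcription and processing of ribosomal RNA, fell 1.53-fold, at 917, 925 and 905 in spinal cord, against 1486, 1378 and 1330 in lymph node (-0.61 ± 0.10, adjusted p = 0.0454 by limma). Its call was lost without any single array, with adjusted p from 0.092 to 0.153, and when dim genes were left out (adjusted p = 0.114). With the mean of all its probe sets its change was -0.13 (adjusted p = 0.743). Gar1 and Dkc1, which guide pseudouridine into ribosomal RNA, had changes of -0.53 ± 0.12 and -0.70 ± 0.18 (adjusted p = 0.0925 and 0.127), and Utp20 had -0.72 ± 0.17. With the block 8 of the 61 fell, against 1355 of all 18193 genes (7.45%) and 1247 of the 10916 genes above the dim filter. The share is close to that of the genes above the dim filter and is not a result about the ribosome biogenesis genes.

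Of 76 mitochondrial ribosomal protein genes, 72 lay below 0 with a median of -0.33 and 0 were called. With the block 4 fell, against 7.45% of all genes. At an unadjusted p below 0.05 there were 13, all lower. Over all genes 8.89% were lower at that p, and 1436 of the 10916 genes above the dim filter. Mrpl18 was nearest to a call, at 1204, 1137 and 1239 in spinal cord, against 1674, 2062 and 1796 in lymph node (-0.62 ± 0.12, adjusted p = 0.0676). The translation initiation, elongation and release factors had a median of -0.20, with 21 of 28 below 0 and 0 called. Other genes whose mRNAs carry a TOP tract had a median of -0.13, with 15 of 22 below 0 and 0 called. In that list the elongation factor gene Eef1a1 had a change of 0.01 ± 0.10, the translationally controlled gene Tpt1 -0.03 ± 0.17 and the initiation factor gene Eif3k -0.55 ± 0.15 (adjusted p = 0.151).

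Among 23 regulators of Myc and mTOR signalling, 2 rose in spinal cord and 0 fell, against 1.13% and 1.41% of all genes. The median change of the list was -0.21. Both genes that rose code for partners of Max that oppose Myc at its DNA sites. Mxd1 read 1791, 2136 and 2830 in spinal cord, against 563, 480 and 585 in lymph node, 4.09-fold higher (2.03 ± 0.20, adjusted p = 0.00824 by limma), and kept its call without 4 of the 6 single arrays. Its adjusted p was 0.0543 without spinal cord array 2 and 0.0512 without lymph node array 2. Mxi1 read 1505, 1080 and 1144 in spinal cord, against 597, 658 and 477 in lymph node (1.10 ± 0.19, adjusted p = 0.0461), and its call was lost without any single array, with adjusted p from 0.0994 to 0.124. Mxd4 and Mxd3, of the same family, went the other way. Mxd4 read 1854, 859 and 1087 in spinal cord, against 2879, 1594 and 1965 in lymph node. Its log2 change was -0.79 ± 0.35 (adjusted p = 0.385 by limma, 0.0145 with the block). Mxd3 had a change of -0.24 ± 0.18. Myc itself read 532, 386 and 435 in spinal cord, against 824, 635 and 520 in lymph node (-0.54 ± 0.21, adjusted p = 0.334). Larp1 had a change of 0.30 ± 0.26.

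**Figure D4:**
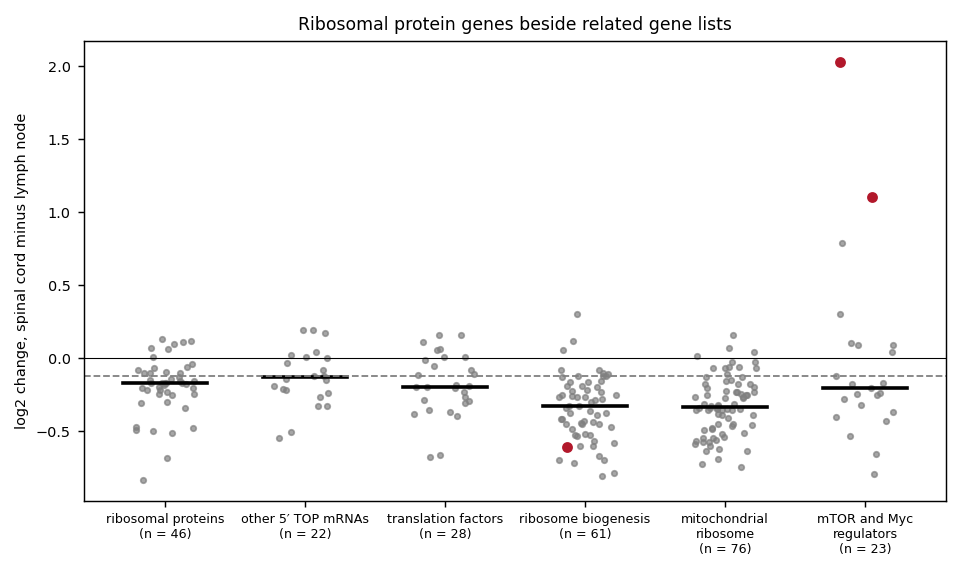
Log2 change, spinal cord minus lymph node, of the ribosomal protein genes and of related gene lists (grey points, genes not called; red points, called at an adjusted p below 0.05; black bars, medians; dashed line, the median of -0.12 over all genes above the dim-gene filter). The ribosomal protein median (-0.17) lies near the dashed line, and the red points are Heatr1, Mxd1 and Mxi1.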

How the data were processed

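RMA (background correction, normalization between arrays, 1 value a probe set) was the authors' method per the submitters' processing notes, which give no version. Each of the 45101 probe sets has a deposited intensity, linear and rounded to whole numbers, and log2 was taken before any test. Names came from the platform annotation, where 34945 probe sets had 1 symbol, and those with several were not used. The rule to drop symbols with "ps" was read as the pseudogene suffix, since every small subunit symbol holds those letters. Of the 46 chosen probe sets, 18 have names ending in _x_at or _s_at, whose probes can also match other transcripts.

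Genes were tested with limma 3.58.1 in R 4.3.3, two-sided, in a model of tissue alone, Benjamini-Hochberg adjusted over 18193 genes and called below 0.05. The replicate number was a block in an alternative, and was tested by a moderated F test. Deviations from the tissue means correlated at 0.576, 0.509 and 0.777 between arrays of 1 number, so arrays of 1 number were treated as pairs; this rests on the data, as the labels do not say what a number shares. No 2 arrays were copies (at least 93.5% of probe sets differed). The fits were tested on simulated data, with added changes larger than those of the ribosomal protein genes. That test does not bear on differences as small as theirs. Named were the called genes, the 8 lowest and 8 highest changes and a list of proteins with known roles. Up to 4 genes of each related list were named too, by adjusted p. Rpl6, Rps20, Cd3e, Lyz2, Ms4a1, Cd79b, Cnp, Ctss, Mmp9, Myc and Larp1 were added after their values were seen. So were Eef1a1, Tpt1, Rpl37a, Rpl27, Rps9, Rps25, Mxd3 and Mxd4. Genes and lists were chosen with earlier results of these data known. Python 3.11.15, pandas 2.3.3 and matplotlib 3.10.9 were used for sequences and figures. Alternatives are listed in the closing section.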

Additional observations from a re-analysis of the deposited data

How the results depend on the processing

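No ribosomal protein gene was called higher in spinal cord under any of the 19 alternatives, and none lower except with the replicate block, where 3 were; in a design that calls 0, this says little about stability. With the replicate block all genes called higher numbered 668 and all genes called lower 1355, against 206 and 257 without it. The related lists had 1 (other TOP genes), 2 (translation factors), 8 (ribosome biogenesis), 4 (mitochondrial ribosome) and 5 (Myc and mTOR regulators) called. Of those 5 regulators, 3 were higher and 2 lower in spinal cord. The median log2 change of the ribosomal protein genes stayed below 0 throughout, at -0.24 with array weights, -0.19 with median centring, -0.07 with quantile normalization, -0.16 with the mean of all probe sets, -0.18 without _x_at and _s_at sets, and -0.22 to -0.09 with arrays left out. Leaving out both arrays of 1 number was added after seeing the data. At an adjusted p below 0.01, all genes called were 56 higher and 47 lower. With arrays left out these were 0 to 136 higher and 0 to 190 lower. Ribosome biogenesis genes called numbered 0 without dim genes, with quantile normalization, with a variance trend, with the mean of all probe sets and at 0.01, and 0 to 1 with arrays left out; Myc and mTOR regulators numbered 1 with median centring, the variance trend, the mean of all probe sets and at 0.01, and 0 to 1 with arrays left out, where their median ran from -0.274 without lymph node array 3 to -0.0143 without lymph node array 2, and was -0.0231 without spinal cord array 3. Array weights gave 1 mitochondrial ribosomal call. Ribosomal protein genes called for the array number were 10 without dim genes, 8 with quantile normalization, 8 with the mean of all probe sets, and 0 without either array of any 1 number. In the main fit 23% of all genes above the dim filter were called for the number, against 11.6% of the ribosomal protein genes above it. The count in the main fit is therefore not a result about the ribosomal protein genes. For the other fits the shares of all genes called are not set beside the counts here, so no result is read from those counts. Signs turned for Rpl39l with median centring (-0.0163) and array weights (-0.0838), for Rpl39 with array weights (-0.0271), for Rps3 with the mean of all probe sets (0.11), for Rpl41 without _x_at and _s_at sets (0.11), and with quantile normalization for Rpl37 (0.0335), Rpl13a (0.0464), Rpl38 (0.0066), Rps3 (0.0080), Rps18 (0.0217) and Rps4x (0.0109). With arrays left out, signs turned for 16 of the 46 genes, over ranges of -1.43 to 0.0614 for Rps15, -0.69 to 0.26 for Rps19, -0.34 to 0.49 for Rpl27a, -0.19 to 0.0379 for Rpl38, -0.16 to 0.0042 for Rps2, -0.38 to 0.0418 for Rps6, -0.35 to 0.12 for Rps14, -0.10 to 0.0137 for Rpl13a, -0.30 to 0.34 for Rpl39l, -0.0529 to 0.17 for Rps16, -0.0771 to 0.27 for Rpl39, -0.0880 to 0.27 for Rps27, -0.20 to 0.0250 for Rps18, -0.48 to 0.0087 for Rps25, -0.34 to 0.15 for Rpl7a and -0.41 to 0.17 for Rpl37; all 16 were uncalled in the tissue test. The cause was not tested. Signal over background limits Rps16, Rps4l and Rpl3l, which lay below the dim filter.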
